A study of Mus musculus with 43 samples.

Results

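The guides described here are the 70 sgRNAs of a metabolic CRISPR knockout library that target the proteasome and the COP9 signalosome, out of 10640 sgRNAs in all. They were chosen by gene symbol alone, as every library gene whose symbol starts with Psm and one of the letters a to g, or with Cops, followed by a digit. This gave 14 of the 2078 library genes with 5 sgRNAs each. Of these, 10 genes and 50 sgRNAs belong to the proteasome (Psma3, Psmb2, Psmb3, Psmc1, Psmc2, Psmc4, Psmd1, Psmd6, Psmd7 and Psmd11), and 4 genes and 20 sgRNAs belong to the COP9 signalosome (Cops2, Cops4, Cops6 and Cops8). The library also carries 250 nontargeting sgRNAs, against which all levels were set.

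The proteasome degrades proteins that carry ubiquitin chains. Its core particle is a barrel of alpha and beta rings that encloses the proteolytic sites, and its regulatory particle recognizes, unfolds and feeds in the substrate with a ring of ATPases (Psmc) and a set of non-ATPase subunits (Psmd). The COP9 signalosome is built like the lid of that regulatory particle and removes NEDD8 from cullins, which resets the cullin-RING ubiquitin ligases. Dividing cells, activated T cells among them, need the proteasome to renew cyclins and other regulators of the cell cycle.

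The integrated guides were sequenced from DNA of OT-I T cells sorted as CD90.1+. OT-I cells are CD8+ mouse T cells with a T cell receptor for ovalbumin, and here they carried a Cas9 knock-in and, after transduction, the lentiviral library with its CD90.1 reporter. T0 was an aliquot of the cultured cells from the day of transfer (3 libraries), and it shared Cas9 and the library with every other group. All other cells were recovered at day 7 after transfer into Cas9 knock-in mice with orthotopic KPC_OVA tumours, a mouse pancreatic cancer line that expresses ovalbumin, treated from the day of transfer with anti-PD-1 or IgG. The organs were primary tumour, lung, liver, peritoneal metastases, spleen, draining lymph nodes and nondraining lymph nodes. Of 43 samples, 41 carried values. Liver anti-PD-1 had 1 library, liver IgG and peritoneal metastases IgG had 2 each, and every other group had 3. According to the labels each library is a biological replicate, but they do not say how many mice stand behind it, so the p-values measure the spread between libraries. Transduced cells had been kept in culture for some days before T0, and any guide loss in that time is outside these comparisons. Genomic DNA carries no expression markers, so the sorted cell type could not be checked in these data.

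The deposited value is a signal per sgRNA, a read count that the authors normalized to the nontargeting sgRNAs and corrected for batches, so the read depth behind it is unknown. In what follows, the level of a gene is the mean over its 5 sgRNAs of log2(signal + 1), less the nontargeting median in that library, and a change is a group mean of such levels minus the mean of T0. On this scale the change of a guide that is nearly gone is understated. The test was a limma fit of all 41 libraries, and a gene was called where its p, adjusted by Benjamini-Hochberg over all 2078 genes, did not exceed 0.05. All 14 groups were set against the same 3 T0 libraries. The summed signal ranged from 1788300 to 4228882 per library. Lymph node libraries stood apart. Of all sgRNA values there, 71.8% lay at the guide's lowest value, one shared by at least 2 libraries of the same replicate number, against 11.4% in the 26 libraries of the other 5 organs, so the lymph nodes are given separately. One library, peritoneal metastases anti-PD-1 replicate 2, carries spleen as its tissue label and was used under its title.

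The guide sequences of this library are not in the files used here, which hold only guide identifiers. For Cops8, the member with the highest mean change, the study's supplementary tables list new guides made for a later single-cell screen. The paper states that this later screen targeted genes that both of its algorithms had found enriched in some organ and treatment. The listing of Cops8 therefore places it among the genes that the authors called enriched in these data. The organ and treatment of that call were not examined here. The guides are shown to place the gene and its target sites. The 20 bases of each guide stand in lower case, 5′ to 3′, followed in capitals by the PAM that a search of the GRCm38.p6 genome found next to it.
Cops8_gRNA1: ctttcacaatagatgcaacaAGG
Cops8_gRNA2: agaagctgaccgtacactggCGG
Cops8_gRNA3: caaccatcaacgcccaccagTGG
Each matched the genome at 1 place, inside Cops8 on the plus strand of chromosome 1 (chr1:90602960-90613341). Cops8_gRNA1 lies on the plus strand at chr1:90610081-90610100 in exon 5, Cops8_gRNA2 on the minus strand at chr1:90604399-90604418 in exon 2, and Cops8_gRNA3 on the plus strand at chr1:90606610-90606629 in exon 4. The predicted cuts fall in coding sequence of both coding RefSeq transcripts, at codons 112, 36 and 96 of the 209 of the first. Whether any of these 3 is among the 5 Cops8 sgRNAs measured here is not known.

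Over the mean of tumour, lung, liver, peritoneal metastases and spleen, guides against all 10 proteasome genes were lost from the transferred cells. In single groups some of these genes did not pass, as in tumour, where 8 did under each treatment. The call of Psmd1 over the mean was lost with the median of its sgRNAs, or with those of lowest mean signal left out. In the same mean, the COP9 genes ranged from a loss that some settings did not keep (Cops6) to no called change (Cops8). Cops8 passed in none of the 10 groups in the fit of all libraries. With only the group and T0 in the fit, it was enriched in spleen IgG. Over the mean of the 10 groups of these 5 organs, 11 of the 14 genes were depleted, against 15.3% of all genes. They were the 10 proteasome genes and Cops6. The median change was -4.98 for the proteasome genes and -1.45 for the COP9 genes, beside -0.55 over all 2078 genes. The same 11 genes lay below every T0 library in all 26 libraries of these organs, where 16.2% of all genes did. For comparison, 19 of the 20 ribosomal protein genes of the library were depleted, with a median of -5.76, and so were 24 of its 26 RNA polymerase genes, with a median of -4.94. No gene of a further list of ubiquitin, NEDD8 and proteasome assembly genes was held by the library.

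By organ and treatment, the number of the 14 genes depleted was 9 in primary tumour under IgG and 9 under anti-PD-1, where 11.5% and 11.9% of all genes were depleted. In lung it was 10 under IgG and 12 under anti-PD-1, against 18% and 16.6% of all genes. Liver had 10 under IgG and, in its single anti-PD-1 library, 7, against 10.8% and 6.16%. Without liver IgG replicate 3 the count there was 6. Peritoneal metastases had 11 under each treatment, against 11.2% and 13%, and 7 under anti-PD-1 without replicate 2, the library with the conflicting label. Spleen had 10 under each, against 12.2% and 12.8%. In all, 99 of the 140 gene and group pairs were depleted, and none was enriched.

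In the alpha ring of the core particle, Psma3, a structural subunit, fell in all 10 groups. Its change over the 10 groups was -5.22 (SE 0.673, limma adjusted p = 9.85e-09), and the single groups lay between -6.02 and -4.62. In the beta ring, both members encode subunits without a proteolytic site. Psmb2 fell in all 10 groups, by a mean change of -5.83 (SE 0.723), with single groups between -7.10 and -4.55.

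Psmb3 had the most negative mean change of the 14 genes, -6.00 (SE 0.633, limma adjusted p = 7.14e-11), and ranked 23 of 2078 from the lowest. Its level in the 3 T0 libraries was -0.57, 0.02 and 0.96. In primary tumour it was -5.04, -7.55 and -5.81 under IgG and -6.25, -5.04 and -5.82 under anti-PD-1. Tumour and T0 libraries did not overlap. In lung the level was -7.15, -5.91 and -5.76 under IgG and -3.71, -6.05 and -4.55 under anti-PD-1. In liver it was -6.58 and -7.19 under IgG and -5.21 in the single anti-PD-1 library. The least depleted library outside the lymph nodes was thus lung anti-PD-1 replicate 1, still below every T0 library. Peritoneal metastases gave -6.59 and -6.14 under IgG and -5.46, -5.97 and -4.98 under anti-PD-1. Spleen gave -6.56, -7.41 and -4.96 under IgG and -5.25, -6.07 and -5.04 under anti-PD-1. All 26 libraries were therefore below T0, and the organs overlapped each other.

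All 5 Psmb3 sgRNAs were depleted. For guide s_03856 the deposited signal was 281, 449 and 797 in T0. In primary tumour it was 0.125, 0.196 and 0 under IgG and 2.87, 0.196 and 0 under anti-PD-1. It lay at the shared lowest value in 23 of the 26 libraries, and its highest signal was 25.2, in lung anti-PD-1 replicate 1. That library also held the highest signal of guide s_03860, 295, within the T0 range of 81.2 to 357.

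Among the ATPases of the regulatory particle, Psmc4 fell in all 10 groups (mean change -5.89, SE 0.623, limma adjusted p = 7.14e-11). Its single groups ran from -7.32 in lung anti-PD-1 to -4.89 in liver anti-PD-1. Psmc2 also fell in all 10 (mean -5.06, SE 0.690, range -5.89 to -4.12). Psmc1, which takes part in opening the gate of the core particle, had a mean of -3.83 (SE 0.824, adjusted p = 0.000217 from limma) and fell in 8 of 10 groups. It did not pass in spleen anti-PD-1, at -2.77 (limma adjusted p = 0.103), nor in the single liver anti-PD-1 library, at -1.17 (limma adjusted p = 0.9997). With only the group and T0 in the fit it also passed in spleen anti-PD-1.

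The 4 non-ATPase subunits had mean changes between -4.89 and -3.34, and those of the core and ATPase subunits, Psmc1 aside, lay between -6.00 and -5.06. This difference between subunit classes was not tested. Psmd7, the inactive partner of the deubiquitinase of the lid, fell in all 10 groups (mean change -4.89, SE 0.643). So did Psmd6, another lid subunit (mean -4.35, SE 0.729). Psmd11, a lid subunit that clamps the particle onto the core, had a mean of -3.75 (SE 0.736) and fell in 7 groups. Psmd1, the large scaffold subunit of the base, had the smallest mean of the proteasome genes, -3.34 (SE 0.743, limma adjusted p = 0.000354), and also fell in 7. With the median of its 5 sgRNAs in place of the mean, Psmd1 was at -3.06 and did not pass (limma adjusted p = 0.0689). With the sgRNAs of lowest mean signal left out it was at -1.92 and did not pass (limma adjusted p = 0.453). Neither Psmd1 nor Psmd11 passed in the tumour in the fit of all libraries. Psmd1 was at -2.58 there under IgG and -2.31 under anti-PD-1 (limma adjusted p = 0.0931 and 0.171), and Psmd11 at -2.36 and -2.76 (limma adjusted p = 0.146 and 0.0556). These calls depend on the libraries in the fit. With the tumour group and T0 alone, both genes passed under both treatments (limma adjusted p from 1.91e-05 to 0.000686), and without the lymph nodes Psmd1 passed under IgG (limma adjusted p = 0.033) and Psmd11 under anti-PD-1 (limma adjusted p = 0.0291). The tumour minus spleen difference itself was 1.15 (SE 0.699) for Psmd1 and 0.97 (SE 0.693) for Psmd11, each with a limma adjusted p of 0.9996, so a smaller loss in tumour was not shown.

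Of the COP9 genes, Cops6, the inactive partner of the deneddylating subunit, was depleted over the 10 groups (mean change -2.93, SE 0.722, limma adjusted p = 0.00136) and fell in 5 of them. Its loss reached -4.20 in lung anti-PD-1 and -4.11 in peritoneal metastases IgG. It lay below every T0 library in all 26 libraries. The call was lost with the median of its 5 sgRNAs (-2.66, limma adjusted p = 0.169). It was also lost with the sgRNAs of lowest T0 signal left out, which kept only guides s_03936 and s_03938 (-1.48, limma adjusted p = 0.751). With those of lowest mean signal left out, guide s_03938 alone remained (-0.85, limma adjusted p = 0.97). Both filters removed its most depleted guide, s_03937 (-4.31), and the filter on mean signal uses the libraries in which guides fell. The lid counterpart of Cops6 is Psmd7, whose mean change was -4.89.

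Cops2, the counterpart of Psmd11, had a mean change of -1.33 (SE 0.707, limma adjusted p = 0.367) and, in the fit of all libraries, passed in lung anti-PD-1 alone, at -2.72 (adjusted p = 0.0354 from limma). That call was lost when any 1 of 5 of the 6 libraries compared was left out (limma adjusted p = 0.0828 to 0.112), and kept without lung anti-PD-1 replicate 3. Its T0 levels were 0.50, 0.22 and 0.23. In lung its levels were -2.24, -2.25 and -0.95 under IgG and -2.88, -2.67 and -1.67 under anti-PD-1. In primary tumour they were -1.07, -1.17 and -1.20 under IgG and -1.32, -1.46 and -2.08 under anti-PD-1. All 12 of these lung and tumour libraries were below T0. In liver the levels were -0.42 and -0.28 under IgG and -0.18 under anti-PD-1. In peritoneal metastases they were -0.91 and 0.25 under IgG and -1.99, -1.55 and -1.03 under anti-PD-1. In spleen they were -0.58, 0.30 and 0.16 under IgG and -0.82, -1.38 and 0.14 under anti-PD-1. Peritoneal metastases IgG and spleen IgG thus overlapped T0, and 24 of the 26 libraries lay below it. Over all genes the median change was -1.42 and -1.07 in lung (IgG and anti-PD-1) and -0.28 and -0.20 in tumour. The share of all genes below T0 in the same lung and tumour libraries was not counted.

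Cops4, a subunit that helps place the catalytic pair of the complex, had a mean change of -1.58 (SE 0.855, limma adjusted p = 0.389) and, in the fit of all libraries, passed in peritoneal metastases anti-PD-1 alone, at -3.44 (limma adjusted p = 0.031). The call was lost when any 1 of 5 of the 6 libraries was left out (limma adjusted p = 0.074 to 0.11), the library with the conflicting label among them, and kept without peritoneal metastases anti-PD-1 replicate 3. Its T0 levels were 0.15, 0.28 and -0.04. In peritoneal metastases its levels were -2.62 and -1.74 under IgG and -3.54, -3.52 and -2.85 under anti-PD-1. In primary tumour they were -1.91, -1.52 and -2.18 under IgG and -1.77, -1.75 and -2.34 under anti-PD-1. None of these 11 libraries reached the T0 range. In lung the levels were -2.19, -3.78 and -0.77 under IgG and -0.56, -3.35 and -1.26 under anti-PD-1. In liver they were -1.20 and -0.21 under IgG and -0.72 under anti-PD-1. In spleen they were -1.23, -0.27 and 0.24 under IgG and -0.23, 0.35 and 1.91 under anti-PD-1. Spleen was the organ where Cops4 overlapped T0 under both treatments, and 23 of the 26 libraries lay below T0. Over all genes the median change in peritoneal metastases was -0.54 under IgG and -0.55 under anti-PD-1.

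The spread behind these 2 results is shared with the sparse lymph node libraries. When those 12 libraries were left out of the fit, the mean changes of Cops2 and Cops4 stayed the same, their SE shrank to 0.408 and 0.525, and both passed the threshold (limma adjusted p = 0.0174 and 0.0311), where 17.7% of all genes were depleted. All 13 members other than Cops8 passed in that fit. By group, Cops2 was then depleted in 4 of the 10 groups, with lung IgG at -2.13 (limma adjusted p = 0.00262), and also in tumour and peritoneal metastases under anti-PD-1. Cops4 was depleted in 5, which were both lung groups, both peritoneal groups and tumour anti-PD-1. Cops6 was depleted in 7. The share of all genes depleted in each group is not given for that fit. In lung IgG the median change over all genes was -1.42, and Cops2 ranked 561 of 2078 from the lowest.

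Cops8, a small subunit of the complex, did not fall. Its mean change was 0.23 (SE 0.761, limma adjusted p = 0.948), it ranked 2041 of 2078 from the lowest, and it passed in none of the 10 groups in the fit of all libraries or without the lymph nodes. With only the group and T0 in the fit, it was enriched in spleen IgG (1.45, limma adjusted p = 0.00774). In the fit of all libraries that change had a limma adjusted p of 0.839. In the single liver anti-PD-1 library its change was 0.60, with no spread between liver libraries to test it against. Its T0 levels were 0.47, 0.20 and 0.20. In primary tumour the level was 0.32, 0.50 and -0.22 under IgG and -0.30, -0.18 and -0.68 under anti-PD-1. In spleen it was 1.62, 2.06 and 1.55 under IgG and 1.15, 1.22 and 1.92 under anti-PD-1. All 6 spleen libraries were above every T0 library, and the 3 tumour anti-PD-1 libraries were below it. In lung the level was -1.62, 0.34 and 1.41 under IgG and 1.22, 0.08 and 2.08 under anti-PD-1. In liver it was 0.60 and -0.73 under IgG and 0.89 under anti-PD-1. In peritoneal metastases it was 0.98 and 0.20 under IgG and 0.12, -1.41 and 0.15 under anti-PD-1. Lung and liver libraries lay on both sides of T0, and 10 of the 26 libraries in all were below it. Without centring on the nontargeting sgRNAs the mean change of Cops8 was -0.36 (limma adjusted p = 0.616), so its sign depends on the scaling.

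The 5 sgRNAs of a gene share a target and are not replicates, but they show how many guides carried each change. Over the 10 groups, 35 of the 70 guides were depleted and 0 enriched, against 7.85% of all sgRNAs depleted. Of these, 34 were among the 50 proteasome guides and 1 among the 20 COP9 guides. The count of 35 fell to 23 without T0 replicate 2 and to 22 without T0 replicate 3. A mean change below 0 was seen for 65 of the 70 guides, where 77.9% of all sgRNAs had one. In all 26 libraries, 27 proteasome guides and 0 COP9 guides were below every T0 library, against 6.96% of all sgRNAs.

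All 5 guides were depleted for Psmb3 and Psmc4, and 4 of 5 for Psma3, Psmb2 and Psmc2. Psmd7 and Psmd11 had 3 each, and Psmc1, Psmd1 and Psmd6 had 2 each. The guides of Psmc4 lay close together, between -6.32 and -4.51, while those of Psmc1 ran from -5.57 to -0.75 and those of Psmd1 from -6.03 to -1.51. The smaller gene means of Psmc1 and Psmd1 therefore held guides within the range of the Psmc4 guides next to guides far above it. For Cops6, guide s_03937 was depleted at -4.31 (limma adjusted p = 0.0105), and the other 4 lay between -3.89 and -0.85. The guides of Cops4 lay between -2.85 and -0.71, and those of Cops2 between -2.54 and 0.04.

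The guides of Cops8 kept to a narrow range, from -0.13 to 0.57. For s_07618 the deposited signal was 1086, 709 and 485 in T0. In spleen it was 3165, 1501 and 1746 under IgG and 1228, 1076 and 695 under anti-PD-1. In primary tumour it was 889, 451 and 533 under IgG and 640, 242 and 79.6 under anti-PD-1. All 3 spleen IgG libraries were above the T0 range, and 2 of the 3 tumour anti-PD-1 libraries were below it. None of its 26 values lay at the shared lowest value.

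The starting signal of a guide sets how far it can fall. Member guides had T0 signals from 75.5 to 1211 in single libraries. Split at the median T0 signal of the 50 proteasome guides, the 25 higher guides had a median change of -4.87 with 16 depleted, and the 25 lower guides a median change of -4.97 with 18 depleted. The T0 signal also enters the change itself, so this split cannot show how far the lowest value limited the changes. Among the nontargeting guides, the changes ran from -2.26 to 1.25 with 0 depleted and 0 enriched.

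Many proteasome guides were at their own shared lowest value. In the 26 libraries, 47.7% of the proteasome guide values and 13.8% of the COP9 guide values lay at the shared lowest value, beside 11.4% of all sgRNA values and 7.09% of the nontargeting ones. None of the member guides did so in T0. The share was highest for Psmc4 (63.8%) and Psmb3 (62.3%) and lowest, among proteasome genes, for Psmd11 (28.5%) and Psmd1 (30%). Among COP9 genes it was 30% for Cops6, 13.1% for Cops4, 10% for Cops2 and 2.31% for Cops8. By organ, the proteasome share was 24% and 28% in tumour (IgG and anti-PD-1), and 72.7% and 66.7% in lung. The share over all sgRNAs moved with it, from 3.3% and 3.74% in tumour to 27.3% and 19.5% in lung. In each of the 26 libraries the share was higher over the 70 guides than over all sgRNAs.

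The T0 libraries differed for these genes. The median level of the 10 proteasome genes was -0.25 in T0 replicate 1, -0.11 in replicate 2 and 0.69 in replicate 3, and all 10 were highest in replicate 3, where 43.9% of all genes were. The same held for 20 of 20 ribosomal protein genes and 23 of 26 RNA polymerase genes, but for 1 of the 4 COP9 genes. Over all genes the medians were 0.20, 0.17 and 0.26. The size of each proteasome change thus depends on which T0 library is used. The part of this in the results was not tested beyond leaving each T0 library out. No gene call over the mean of the 10 groups was then lost or gained. Guide calls did change, with the depleted member guides falling from 35 to 22 without T0 replicate 3.

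The authors had corrected the deposited values for batches between organs, and what that did to organ differences was not tested. The comparison below therefore cannot show how organs differed before that correction. Organs were compared with a moderated F-test over tumour, lung, liver, peritoneal metastases and spleen. None of the 14 genes passed (2 with an unadjusted p under 0.05, Cops4 and Psmc4), against 0.241% of all genes. With the lymph node libraries left out of the fit, Cops4, Cops2 and Psmc4 passed (limma adjusted p = 0.0101, 0.0295 and 0.0229), against 3.71% of all genes. In that fit Cops4 was lower than in spleen by a difference of -2.87 in peritoneal metastases (SE 0.524, limma adjusted p = 0.0116) and -2.11 in lung (SE 0.494, limma adjusted p = 0.0191). Its difference of -2.04 in tumour did not pass (limma adjusted p = 0.132).

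Cops2 was lower in lung than in spleen by -1.74 (SE 0.384, limma adjusted p = 0.0142), and Psmc4 by -1.24 (SE 0.374, limma adjusted p = 0.0486), again without the lymph nodes. Lung was lower than spleen over the whole library as well. The median lung minus spleen difference was -0.63 over all genes, with 87% of them below spleen, and -1.04 over the 14 members, with 13 below. In peritoneal metastases the median was 0.00 over all genes and -0.62 over the members, of which 13 were below spleen. In tumour it was 0.27 over all genes and 0.03 over the members, but -1.35 over the 4 COP9 genes. For Cops6 the differences from spleen ran from -0.42 to 0.70, and none passed without the lymph nodes.

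Anti-PD-1 and IgG were compared within each of the 7 organs. Of 98 gene and organ pairs 0 passed (2 with an unadjusted p under 0.05), against 0.151% of all gene and organ pairs, and the lowest limma adjusted p of a member was 0.312. The pair with the lower level under anti-PD-1 was Psmd6 in lung, with means of -5.89 under anti-PD-1 and -3.92 under IgG, a difference of -1.96 (95% interval -3.91 to -0.02). The other was Cops4 in nondraining lymph nodes, with means of 3.29 and 0.79, a difference of 2.51 (95% interval 0.22 to 4.79). In tumour the 14 differences ran from -1.03 to 0.66, with a median of -0.07, beside 0.06 over all genes. Intervals were wide. The median distance from a difference to its 95% limits was 1.93 in tumour, 1.93 in lung and spleen, 2.16 in peritoneal metastases and 2.89 in liver. These limits are not adjusted for the number of genes tested. A difference just beyond them also went uncalled, that of Psmd6 in lung (-1.96). Smaller differences between the treatments were not detectable with these libraries, and larger ones could be missed as well.

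In the lymph nodes most levels rest on guides at their own shared lowest value. There 92.2% of proteasome guide values, 72.9% of COP9 guide values and 72.1% of nontargeting values lay at the shared lowest value. Since the nontargeting median itself was there or close to it, a lost guide came out at a level near 0 and any guide still seen came out high. Of the 56 gene and group pairs, 0 were depleted and 2 enriched, against 19.7% of all pairs called, all of them as enriched. Both were Cops8, at 3.66 in draining nodes under anti-PD-1 (SE 1.01, limma adjusted p = 0.00923) and 4.20 in nondraining nodes under IgG (SE 1.01, limma adjusted p = 0.0101).

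Cops8 guides were more often seen in the nodes than those of the other members. The share of Cops8 guide values at the shared lowest value was 50%, and 71.7% for Cops4, the next lowest. For Psmb3 it was 100%, so that no Psmb3 guide rose above its lowest value in any of the 12 lymph node libraries. Without centring, both Cops8 differences turned negative (-3.52 and -3.14). Centred on the mean of the nontargeting sgRNAs, a choice made after seeing the data, they were 1.54 and 2.56 and neither passed (limma adjusted p = 0.32 and 0.187), while Psmb3, Psmc4 and Psmd11 were depleted in draining nodes. The draining call was also lost with only the groups compared (limma adjusted p = 0.0965), and the nondraining call with the median of sgRNAs (1.32, limma adjusted p = 0.999). Among single libraries, the draining call was lost without draining anti-PD-1 replicate 2 or 3 (limma adjusted p = 0.0524 and 0.0991), and the nondraining call without T0 replicate 2, T0 replicate 3 or nondraining IgG replicate 3 (limma adjusted p = 0.0545, 0.0534 and 0.0604). The median change over all genes in the 4 groups was 2.08 and 1.95 in draining nodes and 1.37 and 1.49 in nondraining nodes. The median over the 10 proteasome genes lay between -0.18 and -0.01 in these groups.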

How the data were processed

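Guide abundance was measured in genomic DNA by sequencing the integrated sgRNA in 41 libraries. The authors counted reads with MAGeCK, scaled them by the nontargeting guides, and removed organ batches with ComBat, whose settings are not given in the sources used here. The deposited values are therefore a signal and, 0 apart, not whole reads, so no count test, counting interval or detection floor was used. At quality control 2 samples were dropped, replicate 2 of liver anti-PD-1 and replicate 1 of peritoneal metastases IgG. Whether batch correction altered the smallest values, the differences between organs or the changes from T0 was not tested. Values shared at the lowest level were found within a replicate number, in at least 2 libraries, with a relative tolerance of 1e-09.

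From the signal, log2(value + 1) was centred per library on the median of the 250 nontargeting sgRNAs and averaged per gene. limma 3.58.1 in R 4.3.3 fitted 1 mean per group over all 41 libraries (26 residual and 26.2 prior degrees of freedom), two-sided, with Benjamini-Hochberg adjustment over all 2078 genes or 10640 sgRNAs within a contrast. Contrasts were each group, and the mean of 10 groups, against T0, anti-PD-1 against IgG per organ, and a moderated F-test between organs. Scripts were tested on simulated data. Values in every library are given for the members with the lowest and highest mean change and for those called in under 50% of the groups. Guide sites were searched with Python 3.11.15 in GRCm38.p6 with RefSeq annotation.

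Alternatives were log2(value + 10), the median of sgRNAs, no centring, centring on all sgRNAs, the lowest 10% of sgRNAs left out, a replicate block, lymph nodes left out, only the groups compared, and each library left out. Centring on the mean of the nontargeting sgRNAs and a filter on T0 signal were added after seeing the data. The members and lists were chosen with earlier results of these data known. No 2 libraries were alike beyond a correlation of 0.942.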

Additional observations from a re-analysis of the deposited data

Results flagged for a closer look

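The Cops8 libraries under anti-PD-1 lay on opposite sides of T0 in different organs, with changes of 1.14 in spleen, -0.68 in tumour and -0.67 in peritoneal metastases, none of which passed (limma adjusted p = 0.863, 0.9997 and 0.999). All 3 spleen libraries were above every T0 library, and all 3 tumour libraries and all 3 peritoneal metastasis libraries were below. The spleen minus tumour difference was 1.82 (SE 1.01) and the spleen minus peritoneal metastases difference 1.81 (SE 1.01). Neither passed a test of the difference (limma adjusted p = 0.9996 and 0.9999, and 0.984 and 0.881 without the lymph node libraries). The peritoneal group includes the library with the conflicting tissue label, whose level was -1.41.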

How the results depend on the processing

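In all settings run, the 13 members other than Cops8 kept a negative mean change over the 10 groups where they could be fitted. Leaving out the lowest 10% of sgRNAs by mean signal over all libraries removed 39 of the 70 guides, with all those of Psmb3 and Psmc4, since that mean includes the libraries in which the guides fell. Depleted members then numbered 0 in tumour IgG, 1 in tumour anti-PD-1, 3 in lung IgG, 3 in lung anti-PD-1, 0 in liver IgG, 0 in liver anti-PD-1, 3 in peritoneal metastases IgG, 2 in peritoneal metastases anti-PD-1, 1 in spleen IgG and 1 in spleen anti-PD-1. Depleted guides numbered 1, lymph node pairs called 5 and anti-PD-1 pairs called 1. Of the 12 members that could be fitted, 5 lost their call over the mean of the 10 groups, Psmd1 and Cops6 among them. With the same filter on T0 signal, added after seeing the data, 10 guides were removed, depleted members numbered 6 to 10 and depleted guides 28. The median of sgRNAs gave 6 in peritoneal metastases IgG, 7 in peritoneal metastases anti-PD-1, 6 in spleen anti-PD-1, 1 lymph node pair and 1 member differing between organs (Psmc4). Only the groups compared gave 1 lymph node pair and 1 member differing between organs (Cops4). For the single liver anti-PD-1 library that fit holds no spread between liver libraries, and its count is not given. Without the lymph node libraries 3 differed. Lymph node pairs called were 56 without centring, all below T0, 4 with centring on all sgRNAs (Cops8 in 3 groups and Cops4 in 1, enriched) and 4 with centring on the mean of the nontargeting sgRNAs (Psmb3 in both draining groups, Psmc4 and Psmd11 in draining IgG, all depleted, with neither Cops8 call left). Without centring Cops8 changed sign over the 10 groups (-0.36), in draining lymph nodes anti-PD-1 (-3.52) and in nondraining lymph nodes IgG (-3.14).

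The deviations of libraries with the same replicate number had a median r of -0.05 over 248 pairs from different groups, with 39 above 0.1, and those of other pairs a median of 0.02 over 494, with 40 above 0.1. Not every same-numbered pair was above 0.1, so the numbers were not used as pairs. That rule is strict and cannot show that libraries of the same number share no spread. Pairs above 0.1 were more frequent among same-numbered libraries, and a replicate block was run as an alternative. The replicate block raised the lymph node pairs called from 2 to 4 and the depleted guides from 35 to 37, and left the depleted members between 8 and 12 per group. Leaving out 1 library at a time gave 7 to 8 depleted members in tumour IgG, 8 to 9 in tumour anti-PD-1, 10 to 11 in lung IgG, 10 to 12 in lung anti-PD-1, 6 to 10 in liver IgG, 5 to 6 in liver anti-PD-1, 8 to 10 in peritoneal metastases IgG, 7 to 11 in peritoneal metastases anti-PD-1, 8 to 10 in spleen IgG and 7 to 10 in spleen anti-PD-1. It gave 1 to 4 lymph node pairs, 0 to 0 anti-PD-1 pairs, 0 to 0 members differing between organs and 22 to 36 guides. Lymph node pairs fell to 1 without T0 replicate 2, T0 replicate 3 or nondraining IgG replicate 3, and rose to 4 without draining IgG replicate 1 or 3, draining anti-PD-1 replicate 1 or nondraining anti-PD-1 replicate 1. The single liver anti-PD-1 library could not be left out, the lymph node comparison could not be run without lymph nodes, and for the mean of 10 groups the fit of only the groups compared is the one without lymph nodes.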
